A study of Mus musculus with 12 samples.

Results

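Transcripts of 9 complement genes were measured in mouse hippocampus: C1qa, C1qb, C1qc, C3, C4b, C3ar1, C5ar1, Serping1 and Cd59a. They were taken from the count table by symbol, 9 of 54427 genes listed, and all 9 were among the 17227 genes with enough counts to be tested. The study sequenced hippocampal RNA in 12 libraries, 3 in each of 4 groups. 5xFAD;Ulk1OV mice carried the 5xFAD transgenes together with overexpression of ULK1, 5xFAD mice carried the 5xFAD transgenes alone, Ulk1OV mice carried the overexpression alone, and wild-type (WT) mice carried neither. 5xFAD is a line with familial Alzheimer mutations in human transgenes, APP among them, and it forms amyloid plaques. In the line as published, Thy1 promoter elements drive the transgenes in neurons, and the promoter in these mice was not tested. ULK1 is a protein kinase that starts autophagy. The labels describe the material both as hippocampal tissue and as primary cells. Age, sex, the construct and promoter of the Ulk1 overexpression, and whether the replicates were separate animals are not stated in the labels, so every p-value rests on the spread among these 12 libraries, part or all of which may be technical.

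Complement is a cascade of secreted proteins. C1q, assembled from the products of C1qa, C1qb and C1qc, binds a surface and sets off cleavage of C4 and C2, whose fragments form the enzyme that cleaves C3. The C3 fragments tag the surface and signal through receptors, the later steps release C5a and can build a membrane pore, and inhibitors act at each step. In brain, C1q comes mainly from microglia, C3 and C4 are made largely by glia, and the tagging of synapses by C1q and C3 is known from development and from mouse models of amyloid disease.

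The C1q genes lie side by side on chromosome 4 and C4b has a close copy, so these sequences are shown. Promoter windows run from 250 bases before to 50 bases after a gene's start and come from RefSeq on GRCm38.p6, whose table matched 6 of the 9 genes. C1qb and C1qc, the pair whose levels ran closest together, are shown first, 5′ to 3′ along the gene: the C1qb window is chr4:136886151-136886450 on the minus strand and the C1qc window is chr4:136892865-136893164 on the minus strand. The capitals in C1qc mark CTTCCTC, which is the core motif of the myeloid factor PU.1, GAGGAAG, read on the other strand, 194 bases before the start.
C1qb: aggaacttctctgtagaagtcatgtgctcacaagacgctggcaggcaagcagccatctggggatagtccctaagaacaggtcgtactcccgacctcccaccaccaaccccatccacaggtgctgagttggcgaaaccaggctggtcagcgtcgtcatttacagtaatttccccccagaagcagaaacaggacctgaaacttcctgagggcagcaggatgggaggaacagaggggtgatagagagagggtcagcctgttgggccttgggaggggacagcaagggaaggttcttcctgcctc
C1qc: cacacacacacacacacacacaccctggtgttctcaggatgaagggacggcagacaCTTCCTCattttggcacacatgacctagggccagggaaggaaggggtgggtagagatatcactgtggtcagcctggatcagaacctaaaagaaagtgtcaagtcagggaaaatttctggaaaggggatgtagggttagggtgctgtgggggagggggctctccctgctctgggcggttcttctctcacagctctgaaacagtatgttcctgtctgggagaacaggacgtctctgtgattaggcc
GAGGAAG occurred on either strand in 13.6% of 32851 promoter windows of the same length, and in none of the other 5 members' windows searched. GAAANNGAA, the interferon-stimulated element, occurred in C5ar1 and Cd59a and in 8.56% of all windows. TATAAA, the letters of the TATA box, occurred in C3, from base 15 after the start, and in C3ar1, 235 bases before the start. It occurred in 13.6% of all windows. GGAANNGAA, the ETS-IRF composite (8.24% of all windows), and TTCNNNGAA, the STAT motif (8.3%), occurred in none of the 6 windows. A match is a string of letters and not a binding site.

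C4b, the gene of complement component 4, lies on chromosome 17 of GRCm38 beside C4a, which GENCODE M21 gives as a processed transcript. Of the 5330 windows of 50 bases in the longest C4b transcript, 1875 (35.2%) also occur in C4a, so reads from those stretches could be split between both genes. The stretch below, bases 3422 to 3481 of the C4b coding sequence, is the one with most differences between shared ends, and capitals mark its 8 differing bases.
C4b: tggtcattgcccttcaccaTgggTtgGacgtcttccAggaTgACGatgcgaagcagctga
C4a: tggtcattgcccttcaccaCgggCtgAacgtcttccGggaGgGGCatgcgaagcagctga
In CPM, counts per library scaled to the same total, C4a averaged 0.682 over the 12 libraries, with a range of 0.331 to 1.48, which is far under the C4b levels given below. Cd59a shares 3.98% of its windows with Cd59b, which averaged 0.732 CPM, and the other 7 members share no window with any gene.

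Totals ran from 16149992 to 18547132 counts per library. App, whose counts take up reads of the APP transgene where they align to the mouse gene, had 2587 and 2201 CPM in 5xFAD;Ulk1OV replicates 1 and 2 and 2346 to 2667 CPM in 5xFAD, against 1241 to 1493 CPM in Ulk1OV and 1366 to 1472 CPM in WT. The library labelled 5xFAD;Ulk1OV replicate 3 had 1310 CPM of App and 0.779 CPM of Cst7, a gene of plaque-associated microglia, where replicates 1 and 2 had 6.09 and 6.29 CPM of Cst7. Prnp, another check of the labels, had 2202 and 2067 CPM in 5xFAD;Ulk1OV replicates 1 and 2 and 2142 to 2510 CPM in 5xFAD. It had 952 to 1015 CPM in Ulk1OV, 900 to 1119 CPM in WT and 954 CPM in the library labelled 5xFAD;Ulk1OV replicate 3. Why Prnp ran with App was not tested. The library labelled 5xFAD;Ulk1OV replicate 3 goes against its label. Values without it are given beside the results it moves most, and levels are listed by replicate so that it can be set aside. Ulk1OV replicate 1 and WT replicate 3 stood apart in choroid plexus markers, with sums of 4267 and 6322 CPM against 26.8 to 342 CPM in the other 10 libraries. Ulk1 had 85.1 to 98.5 CPM in 5xFAD;Ulk1OV, 63.5 to 86.3 in 5xFAD and 84.6 to 102.0 in Ulk1OV, against 74.1 to 81.8 in WT. Ulk1 did not reach an edgeR adjusted p under 0.05 in Ulk1OV against WT or in 5xFAD;Ulk1OV against 5xFAD. Without the library labelled 5xFAD;Ulk1OV replicate 3, these log2 fold changes were 0.22 ± 0.11 (SE, edgeR adjusted p = 0.232) and 0.43 ± 0.12 (edgeR adjusted p = 0.116). The summed level of 14 microglial markers was 659 to 719 CPM in 5xFAD;Ulk1OV, 671 to 845 in 5xFAD, 636 to 746 in Ulk1OV and 627 to 730 in WT. These are bulk values, in which more or fewer cells of a type and more or less RNA per cell cannot be told apart.

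Per kilobase of the longest transcript, the 3 C1q genes were the most abundant members. C1qa had a median of 71.9 CPM per kb over the 12 libraries (54.7 to 99.7), C1qb 70.4 (42.2 to 84.2) and C1qc 50.8 (32.4 to 63.3). C4b followed with 13.5 CPM per kb (8.15 to 18.4), then Serping1 with 6.94 (4.16 to 14.4) and Cd59a with 3.92 (2.26 to 9.08). C3 had 1.35 CPM per kb (0.429 to 1.66), C3ar1 0.882 (0.608 to 1.14) and C5ar1 0.524 (0.378 to 1.01). Only the steps from C1qc to C4b and from Cd59a to C3 separated neighbours whose ranges did not overlap. The C1q genes, C4b and both inhibitors thus stood above C3 and the receptors C3ar1 and C5ar1. Raw counts per library were 624 to 1945 for the C1q genes and 794 to 1759 for C4b, but 39 to 153 for C3, 47 to 92 for C3ar1 and 18 to 41 for C5ar1.

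**Figure D1:**
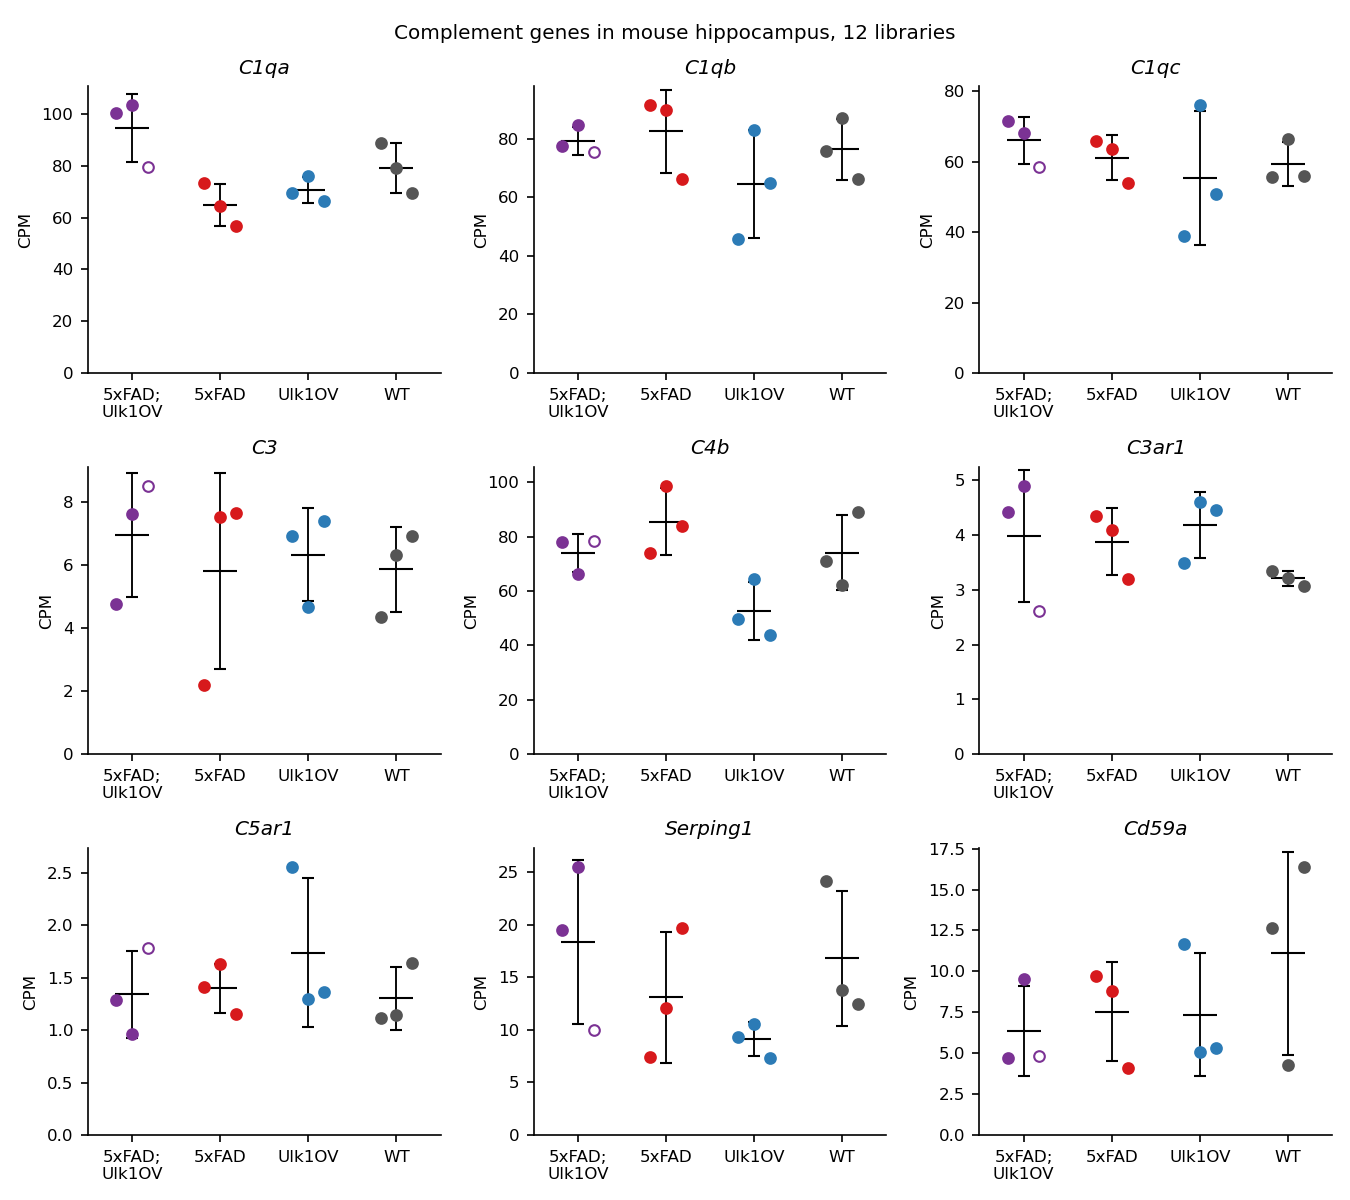
Level of each of the 9 complement genes in CPM (vertical axes, from 0) in the 12 libraries, grouped as 5xFAD;Ulk1OV, 5xFAD, Ulk1OV and WT. Points are libraries, black marks are group means with SD, and the open circle is the library labelled 5xFAD;Ulk1OV replicate 3. C1qa in 5xFAD;Ulk1OV lies above 5xFAD, while C3, Serping1 and Cd59a spread widely within groups.

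Across the comparisons, C1qa was the only member called, in the interaction. Calls are at an adjusted p under 0.05 in edgeR's quasi-likelihood test, fitted across all tested genes. A lack of calls does not show that differences were small. Serping1, not called, was 0.54-fold in Ulk1OV against WT and 2.02-fold in 5xFAD;Ulk1OV against Ulk1OV. In 5xFAD against WT not even App was called with all 12 libraries, with 2346 to 2667 CPM in 5xFAD and 1366 to 1472 CPM in WT. App passed there without the library labelled 5xFAD;Ulk1OV replicate 3 (log2 0.82 ± 0.10, edgeR adjusted p = 0.0102), where 0.017% of all genes did. In 5xFAD against WT, 0 of 9 members were called (1 at an unadjusted p under 0.05, 0 by DESeq2), where the background over all genes was 0% called, 12.4% under the unadjusted p and 0.778% by DESeq2, and 0 of 9 had non-overlapping replicates against 19.5% of all genes. The comparison of 5xFAD;Ulk1OV against 5xFAD called 0 of 9 (1 at the unadjusted p, 1 by DESeq2) against 0.0464% of all genes called, 17.4% at the unadjusted p and 3.67% by DESeq2. In Ulk1OV against WT, 0 of 9 were called (2 at the unadjusted p, 1 by DESeq2) against 5.17%, 24.1% and 10.6% of all genes by the same rules. For 5xFAD;Ulk1OV against Ulk1OV, 0 of 9 were called (3 at the unadjusted p, 2 by DESeq2) against 6.1%, 24.8% and 11.4% of all genes. In the interaction, which asks whether the 5xFAD difference with Ulk1OV exceeds that without it, 1 of 9 was called (2 at the unadjusted p, 1 by DESeq2) against 12.8%, 29.4% and 16.5% of all genes. Averaged over the other genotype, 0 of 9 were called for 5xFAD (1 at the unadjusted p, 0 by DESeq2) and 0 of 9 for Ulk1OV (2 at the unadjusted p, 0 by DESeq2), with 0% of all genes called in both 4.66% and 8.83% at the unadjusted p, and 0.0871% and 0.232% by DESeq2.

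The median log2 fold change of the 9 members was 0.04 in 5xFAD against WT, 0.04 in 5xFAD;Ulk1OV against 5xFAD, -0.16 in Ulk1OV against WT and 0.25 in 5xFAD;Ulk1OV against Ulk1OV, and their median interaction was 0.21. Without the library labelled 5xFAD;Ulk1OV replicate 3 these medians were 0.03, 0.11, -0.17, 0.34 and 0.28. Over all genes these medians lay between -0.013 and 0.0034. The comparisons share groups of 3 libraries, so they are not independent of each other.

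**Figure D2:**
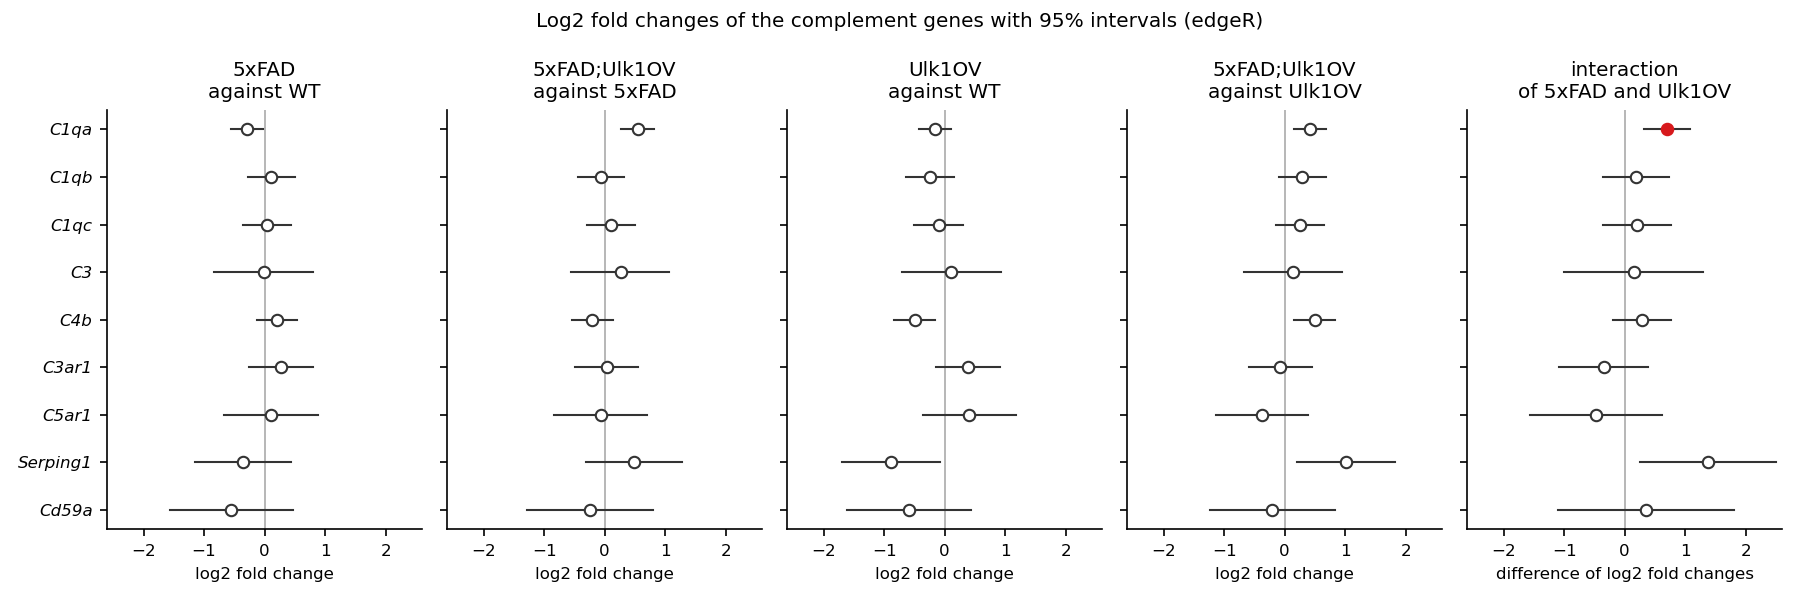
Log2 fold change of each complement gene (points) with its 95% interval (bars) in the 4 comparisons and the interaction, from edgeR's quasi-likelihood fit. The vertical line at 0 marks no difference and a filled red point marks an adjusted p under 0.05. The C1qa interaction of 0.71 is the one red point, and the intervals of C3, C5ar1, Serping1 and Cd59a are the wide ones.

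C1qa, C1qb and C1qc encode the chains of C1q, the protein that recognises targets of the classical pathway. The mean C1qa level was highest in 5xFAD;Ulk1OV, and its interaction passed with all 12 libraries but not in 5 of the 12 fits that left out 1 library, nor after correction for GC content and length (0.08 ± 0.15, edgeR adjusted p = 0.822). C1qb and C1qc overlapped in every comparison. C1qa had 100.5, 103.6 and 79.6 CPM in 5xFAD;Ulk1OV, 73.4, 64.4 and 56.9 in 5xFAD, 69.6, 76.2 and 66.5 in Ulk1OV, against 88.8, 79.0 and 69.5 in WT. Each 5xFAD;Ulk1OV library lay above each 5xFAD library and above each Ulk1OV library, but 5xFAD;Ulk1OV overlapped WT. Group means were 94.6 ± 13.1, 64.9 ± 8.25, 70.8 ± 4.96 and 79.1 ± 9.64 CPM in the same order (SD, n = 3 each).

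The C1qa interaction passed the test, with a log2 value of 0.71 ± 0.18 (SE, 95% interval 0.33 to 1.08, edgeR adjusted p = 0.0218). The simple comparisons of C1qa did not pass. C1qa was 1.46-fold higher in 5xFAD;Ulk1OV than in 5xFAD (log2 0.54 ± 0.12, edgeR adjusted p = 0.0776) and 1.34-fold higher than in Ulk1OV (0.42 ± 0.12, edgeR adjusted p = 0.0598). It differed by a log2 value of -0.29 ± 0.12 in 5xFAD against WT (edgeR adjusted p = 0.37) and of -0.16 in Ulk1OV against WT (edgeR adjusted p = 0.458). Of the 9 members, 1 (C1qa) had replicates that did not overlap in 5xFAD;Ulk1OV against 5xFAD, against 22.2% of all genes.

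Without the library labelled 5xFAD;Ulk1OV replicate 3, the C1qa interaction was 0.84 ± 0.16 (edgeR adjusted p = 0.00751), 5xFAD;Ulk1OV against Ulk1OV was 0.54 ± 0.12 (edgeR adjusted p = 0.0186), and 5xFAD;Ulk1OV against 5xFAD was 0.67 ± 0.12 (edgeR adjusted p = 0.0675). Leaving out 5xFAD replicate 3, 5xFAD;Ulk1OV replicate 1 or 2, Ulk1OV replicate 3 or WT replicate 1 ended the C1qa interaction call, with log2 values of 0.61 to 0.66 and edgeR adjusted p of 0.056 to 0.0637. The correction for GC content and length within libraries gave a C1qa log2 fold change of 0.20 ± 0.10 in 5xFAD;Ulk1OV against 5xFAD (edgeR adjusted p = 0.509). The C1qa transcript is 1040 bases long with 59.5% GC, above the GC content of 94.6% of tested genes.

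C1qb had 77.5, 84.5 and 75.5 CPM in 5xFAD;Ulk1OV, 91.6, 89.7 and 66.2 in 5xFAD, 45.9, 82.8 and 65.0 in Ulk1OV, against 75.6, 87.1 and 66.3 in WT. C1qc had 71.4, 68.0 and 58.6 CPM in 5xFAD;Ulk1OV, 65.7, 63.7 and 53.9 in 5xFAD, 38.9, 76.1 and 50.8 in Ulk1OV, against 55.5, 66.5 and 55.8 in WT. Both genes were lowest in Ulk1OV replicate 1, which stood apart in choroid plexus markers, and neither separated any pair of groups. WT replicate 3, the other library high in those markers, had 66.3 CPM of C1qb and 55.8 CPM of C1qc. The part of that tissue was not tested. The C1qb interaction was 0.18 ± 0.25 (edgeR adjusted p = 0.681) and the C1qc interaction 0.21 ± 0.26 (edgeR adjusted p = 0.641). They were 0.24 for C1qb and 0.32 for C1qc once the library labelled 5xFAD;Ulk1OV replicate 3 was left out. Under the GC and length correction both changed sign, to -0.32 for C1qb and -0.28 for C1qc. Those transcripts have 57.4% and 57.5% GC over 1088 and 1203 bases. Without Ulk1OV replicate 2, C1qc passed in 5xFAD;Ulk1OV against Ulk1OV (log2 0.57, edgeR adjusted p = 0.0303), against 0.25 ± 0.19 with it (edgeR adjusted p = 0.418).

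The 3 genes are neighbours within 18.7 kb of chromosome 4, with 0 other annotated genes between them: C1qb at chr4:136880129-136886187, C1qc at chr4:136889804-136893065 and C1qa at chr4:136895917-136898803, all on the minus strand. Across the 12 libraries, log2 CPM of C1qb and C1qc had a Pearson correlation of 0.90, while C1qa had 0.34 with C1qb and 0.46 with C1qc. These points share libraries, depth and tissue makeup, so the values are descriptions.

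The ratio of C1qa to C1qb CPM was 1.30, 1.23 and 1.05 in 5xFAD;Ulk1OV, 0.801, 0.718 and 0.860 in 5xFAD, 1.52, 0.920 and 1.02 in Ulk1OV, against 1.17, 0.907 and 1.05 in WT. It was below 1 in each 5xFAD library and above 1 in each 5xFAD;Ulk1OV library. The ratio of C1qc to C1qb lay between 0.710 and 0.921 in every library, and its groups overlapped. The summed C1q level was 32.4% to 37.0% of the summed microglial markers in 5xFAD;Ulk1OV, 25.8% to 31.9% in 5xFAD, 24.3% to 31.5% in Ulk1OV and 30.1% to 34.8% in WT. As a share of those markers, summed C1q in 5xFAD;Ulk1OV lay above 5xFAD and above Ulk1OV in all its libraries and overlapped WT. C1qa alone was 12.1% to 15% of the markers in 5xFAD;Ulk1OV, against 7.62% to 10.2% in 5xFAD and 9.77% to 10.9% in Ulk1OV. C1qb did not separate these groups, with 10.8% to 12.2%, 9.86% to 12.7% and 7.22% to 11.1% in the same order.

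**Figure D3:**
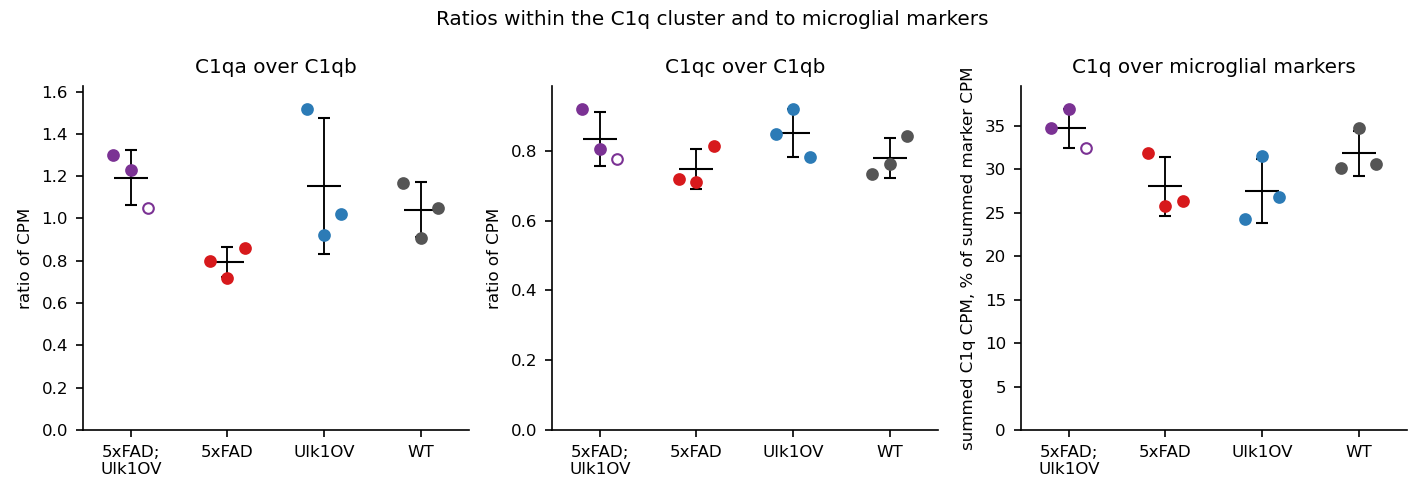
Ratio of C1qa to C1qb CPM, ratio of C1qc to C1qb CPM, and summed C1q CPM as a percent of 14 summed microglial markers (vertical axes) in the 12 libraries by group. Points are libraries, black marks are group means with SD, and the open circle is the library labelled 5xFAD;Ulk1OV replicate 3. The C1qa to C1qb ratio is 0.718 to 0.860 in 5xFAD, below each 5xFAD;Ulk1OV library, whereas the C1qc to C1qb ratio overlaps in all groups.

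C4b, which is cleaved after C1q binds, and C3, the central protein of the cascade, did not pass in any comparison. C4b (chr17:34728380-34743882, minus strand) had 78.0, 66.1 and 78.3 CPM in 5xFAD;Ulk1OV, 74.1, 98.8 and 83.8 in 5xFAD, 49.5, 64.4 and 43.9 in Ulk1OV, against 71.2, 62.3 and 89.1 in WT. C4b was lowest in the Ulk1OV group, below each 5xFAD;Ulk1OV library and each 5xFAD library, and its highest Ulk1OV library overlapped WT. C4b was 0.709-fold in Ulk1OV against WT (log2 -0.50 ± 0.16, edgeR adjusted p = 0.0787, DESeq2 adjusted p = 0.0317). It was 1.41-fold in 5xFAD;Ulk1OV against Ulk1OV (log2 0.50 ± 0.16, edgeR adjusted p = 0.0755, DESeq2 adjusted p = 0.0308). C1qa and C4b were the 2 of 9 members whose replicates did not overlap in that comparison, where 27.6% of all genes did not.

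Without Ulk1OV replicate 2, C4b passed in both of those comparisons, with a log2 value of -0.68 in Ulk1OV against WT (edgeR adjusted p = 0.0311) and 0.68 in 5xFAD;Ulk1OV against Ulk1OV (edgeR adjusted p = 0.0236). Without the library labelled 5xFAD;Ulk1OV replicate 3, the C4b values were -0.51 ± 0.16 (edgeR adjusted p = 0.0769) and 0.47 ± 0.18 (edgeR adjusted p = 0.113). In 5xFAD against WT the C4b log2 fold change was 0.21 ± 0.16 (edgeR adjusted p = 0.623), and in 5xFAD;Ulk1OV against 5xFAD it was -0.21 ± 0.16 (edgeR adjusted p = 0.529). Averaged over the other genotype, C4b differed by 0.35 ± 0.11 for 5xFAD (edgeR adjusted p = 0.964) and by -0.35 ± 0.11 for Ulk1OV (edgeR adjusted p = 0.461). The summed level of 9 astrocyte markers, a cell type that makes C4, was 6469 to 7936 CPM in 5xFAD;Ulk1OV, 6180 to 8170 in 5xFAD, 7309 to 7676 in Ulk1OV and 6373 to 7204 in WT. Each Ulk1OV library lay above each WT library in it, and the other pairs of groups overlapped. Their part in the C4b values was not tested.

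C3 (chr17:57203970-57228136, minus strand) had 4.75, 7.62 and 8.52 CPM in 5xFAD;Ulk1OV, 2.21, 7.52 and 7.66 in 5xFAD, 6.93, 4.66 and 7.41 in Ulk1OV, against 4.35, 6.32 and 6.92 in WT. The groups overlapped throughout, and 5xFAD replicate 1 had the lowest level of all libraries. The C3 log2 fold change in 5xFAD against WT was -0.02 ± 0.38 (edgeR adjusted p = 0.992), and its 95% interval of -0.83 to 0.80 holds both a fall and a rise of more than 1.5-fold. Leaving out single libraries moved that C3 value between -0.27 and 0.36. The C3 counts were 39 to 153 per library, and its within-group coefficient of variation was 32%.

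C3ar1 and C5ar1 are receptors for the cleavage fragments C3a and C5a on microglia and other myeloid cells. Neither passed in any comparison. C3ar1 (chr6:122847138-122856161, minus strand) had 4.42, 4.90 and 2.62 CPM in 5xFAD;Ulk1OV, 4.35, 4.10 and 3.20 in 5xFAD, 3.49, 4.60 and 4.47 in Ulk1OV, against 3.35, 3.21 and 3.06 in WT. Each Ulk1OV library lay above each WT library, and the library labelled 5xFAD;Ulk1OV replicate 3 was the lowest of the 12. The C3ar1 log2 fold change in Ulk1OV against WT was 0.39 ± 0.25 (edgeR adjusted p = 0.36), and C3ar1 and Serping1 were the 2 of 9 members not overlapping there, against 29.5% of all genes. In 5xFAD;Ulk1OV against Ulk1OV, C3ar1 differed by -0.07 with that library and by 0.17 without it.

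C5ar1 (chr7:16246743-16259540, minus strand) had 1.29, 0.959 and 1.78 CPM in 5xFAD;Ulk1OV, 1.41, 1.63 and 1.16 in 5xFAD, 2.56, 1.30 and 1.36 in Ulk1OV, against 1.12, 1.14 and 1.65 in WT. All groups overlapped, and Ulk1OV replicate 1, with its high choroid plexus markers, was the highest library. WT replicate 3, the other library high in those markers, had 1.65 CPM of C5ar1, and the part of that tissue was not tested. At 18 to 41 counts per library the C5ar1 log2 fold changes, from -0.37 in 5xFAD;Ulk1OV against Ulk1OV to 0.41 in Ulk1OV against WT, did not pass (edgeR adjusted p = 0.556 and 0.512). Leaving out Ulk1OV replicate 1 brought these C5ar1 values to 0.01 and 0.03. With the library labelled 5xFAD;Ulk1OV replicate 3 left out, C5ar1 differed by -0.61 ± 0.39 in 5xFAD;Ulk1OV against Ulk1OV (edgeR adjusted p = 0.345).

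Serping1, the C1 inhibitor that blocks the proteases bound to C1q, varied by more than 3-fold over the libraries and did not pass with all 12. Serping1 (chr2:84765387-84775444, minus strand) had 19.5, 25.5 and 10.02 CPM in 5xFAD;Ulk1OV, 7.46, 12.1 and 19.7 in 5xFAD, 9.36, 10.6 and 7.36 in Ulk1OV, against 24.2, 13.8 and 12.5 in WT. Each Ulk1OV library lay below each WT library, while 5xFAD;Ulk1OV and 5xFAD each spanned a wide range. Serping1 was 0.54-fold in Ulk1OV against WT (log2 -0.89 ± 0.38, edgeR adjusted p = 0.166) and 2.02-fold in 5xFAD;Ulk1OV against Ulk1OV (log2 1.01 ± 0.38, edgeR adjusted p = 0.114). The Serping1 interaction was 1.37 ± 0.52 (edgeR adjusted p = 0.1).

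The library labelled 5xFAD;Ulk1OV replicate 3 had the lowest Serping1 level of its group, and once it was left out Serping1 passed in 5xFAD;Ulk1OV against Ulk1OV (log2 1.32 ± 0.35, edgeR adjusted p = 0.0359) and in the interaction (1.70 ± 0.47, edgeR adjusted p = 0.0329). The Serping1 difference in Ulk1OV against WT was then -0.90 ± 0.32 (edgeR adjusted p = 0.109). The 3 genes whose log2 CPM ran closest to Serping1 over the 12 libraries, among 12012 genes with at least 5 CPM, were Efemp1 (r = 0.97), Foxc1 (r = 0.94) and Col6a2 (r = 0.94).

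Markers of meningeal and perivascular fibroblasts moved with Serping1. The summed level of 12 such markers was 499.6, 531 and 261 CPM in 5xFAD;Ulk1OV, 219, 353 and 323 in 5xFAD, 222, 259 and 236 in Ulk1OV, against 514, 406 and 364 in WT. None of the 12 was at 0 in any library. In Ulk1OV against WT 9 of the 12 markers were called lower, where 3.04% of all genes were. In 5xFAD;Ulk1OV against Ulk1OV 8 of the 12 markers were called higher, where 3.67% of all genes were. In the interaction 9 of the 12 markers passed, all upward, where 6.8% of all genes passed upward. Other vascular lists ran alike. Summed mural cell markers, Vtn among them, were 105.5 to 122.5 CPM in Ulk1OV against 156 to 207 CPM in WT. They were 134 to 212 CPM in 5xFAD;Ulk1OV and 96.8 to 159 CPM in 5xFAD. Summed endothelial markers were 84.9 to 106 CPM, 107 to 157, 111 to 145 and 81.0 to 108 CPM in the same order. In the interaction 3 of 7 mural markers tested and 4 of 10 endothelial markers were called higher. The part of these cell types in the Serping1 values was not tested.

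Cd59a, a membrane-anchored inhibitor of the pore that ends the cascade, was the most variable member. Cd59a (chr2:104095801-104115354, plus strand) had 4.69, 9.54 and 4.84 CPM in 5xFAD;Ulk1OV, 9.72, 8.82 and 4.08 in 5xFAD, 11.7, 5.07 and 5.34 in Ulk1OV, against 12.6, 4.25 and 16.4 in WT. High and low libraries occurred in every group, all groups overlapped, and the highest was WT replicate 3, one of the pair with high choroid plexus markers. The other of that pair, Ulk1OV replicate 1, had 11.7 CPM of Cd59a, below WT replicate 1 at 12.6. The part of that tissue was not tested. The mean within-group coefficient of variation of Cd59a was 47.6%, above that of 94% of tested genes, against 36.5% for Serping1, 32% for C3, 27.8% for C5ar1 and 11.4% to 16.3% for the other 5 members. The median over all tested genes was 12.5%. Cd59a differed by a log2 value of -0.59 in Ulk1OV against WT (edgeR adjusted p = 0.476) and of -0.56 ± 0.47 in 5xFAD against WT (edgeR adjusted p = 0.668). Without WT replicate 3 these Cd59a values were -0.20 and -0.16.

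For the other members the genes with the closest levels across the 12 libraries were not complement genes. They were Tmed9 (r = 0.92), Yjefn3 (0.91) and Akr7a5 (0.91) for C1qa, Prmt7 (0.93), Tuba1b (0.91) and Rpl9-ps6 (0.91) for C1qb, and Arl2bp (0.94), Apopt1 (0.92) and Cib2 (0.92) for C1qc. For C4b they were Wscd1 (0.90), Wipf1 (0.89) and 5031439G07Rik (0.86), and for C3 they were Clic4 (0.93), Vwc2 (0.92) and Cfap45 (0.86). For the receptors they were B3gat2 (0.88), 1700037H04Rik (0.87) and Nol4 (0.86) beside C3ar1, and Lrch3 (0.90), Slc38a9 (0.90) and Clmn (0.88) beside C5ar1. Cd59a had Pdgfc (0.83), Cavin2 (0.82) and Zbtb43 (0.80). With 12 libraries and 12012 genes compared, these are the extremes of many correlations among libraries that share depth and tissue makeup.

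Another 57 genes, listed by role, belong to the complement system or are related to it, and are called the other complement genes here. Of these, 39 had enough counts to be tested, and 3 (Mbl1, Cfd and C9) had 0 counts in every library. By role, 4 of 12 initiators were tested, 4 of 6 convertase components, 1 of 6 terminal components (C8g), 7 of 9 regulators, 9 of 10 receptors, and 14 of 14 neuronal inhibitors and C1q-related genes. Clu, which encodes the secreted regulator clusterin, had the highest level per length at 868 CPM per kb, followed among the named regulators by Vtn (vitronectin, which binds the forming pore) at 32.4 and Cr1l, whose rodent product blocks the C3-cleaving enzyme on cell surfaces, at 5.64. Among receptors, Calr (calreticulin, a binding partner of C1q) had 172 CPM per kb, Lrp1 18.0 and Megf10 4.87. Initiators and convertase genes were low, with Masp1, a protease of the lectin pathway, at 2.33 CPM per kb, C1ra at 0.460, Colec11 at 0.415, Cfp (properdin) at 2.26, C2 at 0.516 and Hc, the gene of C5, at 0.231. Nptxr, Nptx1 and Sez6l2, neuronal genes, had 107, 73.8 and 87.4 CPM per kb.

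**Figure D4:**
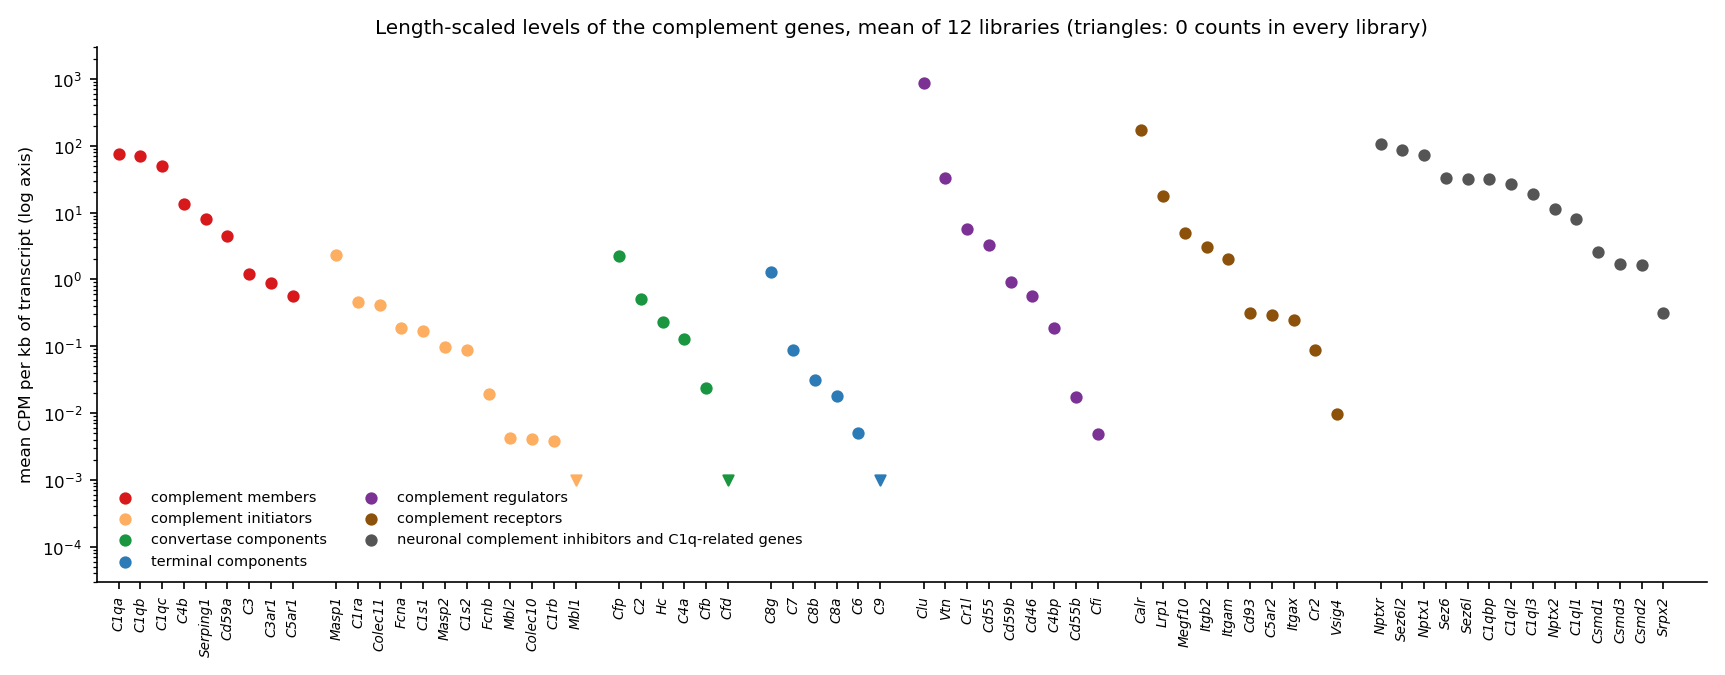
Mean level over the 12 libraries of the 9 members and of the other complement genes, in CPM per kb of transcript on a log axis, grouped by role. Triangles mark genes with 0 counts in every library. Clu at 868 CPM per kb is the highest of the genes plotted, and the C1q genes stand above the other secreted components of the cascade.

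In 5xFAD against WT, edgeR called 0 of the 39 (8 at an unadjusted p under 0.05), where 0% and 12.4% of all genes passed. In 5xFAD;Ulk1OV against 5xFAD it called 0 of 39 (6 at the unadjusted p), where 0.0464% and 17.4% of all genes passed. In Ulk1OV against WT 1 was called higher and 1 lower, where 2.14% and 3.04% of all genes were. In 5xFAD;Ulk1OV against Ulk1OV 1 was called higher and 0 lower, where 3.67% and 2.43% of all genes were. In the interaction 3 were called higher and 1 lower, where 6.8% and 5.96% of all genes were. The median log2 fold change of the 39 was -0.04 in 5xFAD against WT and 0.01 in 5xFAD;Ulk1OV against 5xFAD. It was -0.03 in Ulk1OV against WT and 0.14 in 5xFAD;Ulk1OV against Ulk1OV. With all 12 libraries, the calls fell on the secreted regulator Vtn, on Calr, on the neuronal gene Sez6 and on the C1q-related genes C1ql1 and C1ql3. Without the library labelled 5xFAD;Ulk1OV replicate 3, the receptor gene Cd93 also passed in Ulk1OV against WT (-0.99, edgeR adjusted p = 0.0422). So did Cr1l (0.43, edgeR adjusted p = 0.0479). Cd93 and Nptxr then passed in 5xFAD;Ulk1OV against Ulk1OV (1.13 and 0.77, edgeR adjusted p = 0.0295 and 0.0232). Their interactions passed too (1.61 and 0.865, edgeR adjusted p = 0.017 and 0.0337). All-gene shares were then 6.72%, 8.97% and 14.4% in the same order.

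Vtn had 93.6, 113 and 43.4 CPM in 5xFAD;Ulk1OV, 27.3, 45.9 and 52.2 in 5xFAD, 23.0, 29.6 and 26.2 in Ulk1OV, against 103, 62.1 and 59.6 in WT. Each Ulk1OV library lay below each WT library and below each 5xFAD;Ulk1OV library. Vtn fell in Ulk1OV against WT (log2 -1.51 ± 0.32, edgeR adjusted p = 0.0287), rose in 5xFAD;Ulk1OV against Ulk1OV (1.67 ± 0.32, edgeR adjusted p = 0.018, and 1.99 ± 0.26 without the library labelled replicate 3) and had an interaction of 2.50 ± 0.45 (edgeR adjusted p = 0.00725). The Vtn interaction passed whichever single library was left out, with values of 2.21 to 2.84, the highest once the library labelled 5xFAD;Ulk1OV replicate 3 was left out (edgeR adjusted p = 0.00186). The fall of Vtn in Ulk1OV against WT was lost without Ulk1OV replicate 1, Ulk1OV replicate 3, WT replicate 1 or WT replicate 2 (edgeR adjusted p = 0.061 to 0.139). The rise of Vtn in 5xFAD;Ulk1OV against Ulk1OV was lost without 5xFAD;Ulk1OV replicate 1 or 2 or without Ulk1OV replicate 1 or 3 (edgeR adjusted p = 0.0518 to 0.103). Vtn and Serping1 were high and low in much the same libraries as the summed fibroblast markers. Vtn is itself a marker of mural cells, and the part of either cell type in these values was not tested.

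**Figure D5:**
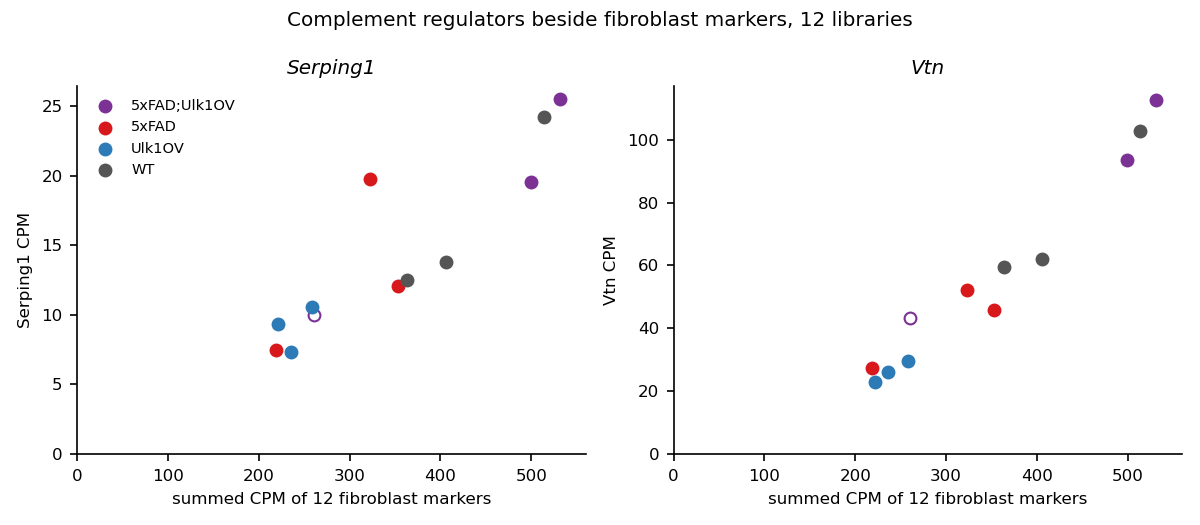
CPM of the inhibitors Serping1 and Vtn (vertical axes) against the summed CPM of 12 markers of meningeal and perivascular fibroblasts (horizontal axes) in the 12 libraries, with colours for the groups and an open circle for the library labelled 5xFAD;Ulk1OV replicate 3. The Ulk1OV libraries sit at 222 to 259 CPM of fibroblast markers with low levels of both genes, and the library labelled 5xFAD;Ulk1OV replicate 3 sits near them at 261 CPM. 5xFAD replicate 1 lies there too, at 219 CPM of the markers, with 7.46 CPM of Serping1 and 27.3 CPM of Vtn.

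Calr had 297, 347 and 480.0 CPM in 5xFAD;Ulk1OV, 337, 267 and 281 in 5xFAD, 477, 527 and 546 in Ulk1OV, against 325, 281 and 353 in WT. Each Ulk1OV library lay above each WT library, and within 5xFAD;Ulk1OV the library labelled replicate 3 lay at the level of Ulk1OV. Calr rose in Ulk1OV against WT (log2 0.70 ± 0.16, edgeR adjusted p = 0.0299), a call lost without Ulk1OV replicate 3, WT replicate 1 or WT replicate 2 (edgeR adjusted p = 0.107 to 0.151). In 5xFAD;Ulk1OV against Ulk1OV, Calr differed by -0.46 ± 0.16 (edgeR adjusted p = 0.0836), and with that replicate 3 left out it fell by 0.67 on the log2 scale (edgeR adjusted p = 0.0125).

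Sez6, a neuronal membrane protein of a family known to inhibit complement, and C1ql1 and C1ql3, secreted synaptic proteins with a C1q domain, were called in the interaction alone with all 12 libraries. Without the library labelled 5xFAD;Ulk1OV replicate 3, Sez6 also passed in Ulk1OV against WT (log2 -0.37, edgeR adjusted p = 0.0448). Sez6 had 168, 160 and 146 CPM in 5xFAD;Ulk1OV, 147, 137 and 140 in 5xFAD, 138, 124 and 125 in Ulk1OV, against 159, 191 and 145 in WT, and its interaction was 0.52 ± 0.14 (edgeR adjusted p = 0.0317). C1ql1 had 14.6, 15.3 and 13.9 CPM in 5xFAD;Ulk1OV, 11.4, 10.4 and 8.77 in 5xFAD, 8.74, 12.5 and 7.79 in Ulk1OV, against 14.5, 10.8 and 11.8 in WT, with an interaction of 0.88 ± 0.25 (edgeR adjusted p = 0.0378). C1ql3 ran the other way, with 43.7, 48.4 and 37.7 CPM in 5xFAD;Ulk1OV, 64.2, 55.8 and 52.2 in 5xFAD, 44.1, 48.1 and 49.3 in Ulk1OV, against 43.7, 43.3 and 42.7 in WT, and an interaction of -0.53 ± 0.15 (edgeR adjusted p = 0.0322). C1ql3 was thus highest in the 5xFAD libraries, above every library of the other groups.

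The GC and length correction ended the calls of Sez6 (interaction 0.03, edgeR adjusted p = 0.94) and C1ql1 (0.04, edgeR adjusted p = 0.936) and left that of C1ql3 (-0.74, edgeR adjusted p = 0.0139). Leaving out single libraries ended the interaction calls of Sez6 in 7 of 12 cases, C1ql1 in 8 of 12 and C1ql3 in 9 of 12, with edgeR adjusted p reaching 0.0839 for Sez6, 0.104 for C1ql1 and 0.084 for C1ql3. With the library labelled 5xFAD;Ulk1OV replicate 3 left out, the C1ql3 interaction was -0.42 ± 0.14 (edgeR adjusted p = 0.063), while the interactions of Sez6 and C1ql1 still passed.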

How the data were processed

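RNA of mouse hippocampus was prepared with an Illumina NEBNext Ultra kit, per the labels. The deposited values are raw read counts per gene. The submitters' processing notes name mm10 as the build, and as tools HISAT2, featureCounts, SAMtools, FastQC, Trim Galore and DESeq2. Their versions and settings, the annotation and the use of strand were not given in the sources used here. Without strand, reads of overlapping genes on opposite strands cannot be told apart. None of the 9 genes shares exonic bases with another gene in GENCODE M21 (GRCm38, the build called mm10), which gave positions, lengths and GC content.

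In R 4.3.3, edgeR 4.0.16 filtered low counts by group (filterByExpr, 17227 genes kept), scaled libraries by TMM and fitted its quasi-likelihood test to all 12 libraries with 1 mean per group. Benjamini-Hochberg adjustment ran over all genes tested, with calls at an adjusted p under 0.05. Levels are CPM with SD over 3 libraries, per kb of the longest annotated transcript where genes are compared, and SE comes from dividing a log2 fold change by the root of its F value. The interaction is the difference of 5xFAD;Ulk1OV against Ulk1OV minus that of 5xFAD against WT. The test was tried on simulated counts.

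The members and the marker and complement lists were chosen with earlier results of these data known. The rule for named genes was the 9 members, up to 3 other complement genes per role by mean CPM plus any called, checks of the labels, and the 3 genes nearest to each member by Pearson correlation of log2 CPM (prior count 2, mean of at least 5 CPM). Alternatives were DESeq2 1.42.0, scaling by its size factors, keeping genes with low counts, a block for replicate number, the 6 libraries of a comparison, a loess correction for GC content and transcript length (span 0.4, 99.3% of tested genes), that correction with the block, and each library left out. Their use on the other complement genes was chosen after seeing the data. Some genes that the rule names are left out here.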

Additional observations from a re-analysis of the deposited data

Results flagged for a closer look

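The interaction term of edgeR's fit tests whether the 5xFAD difference differs with and without Ulk1OV. With all 12 libraries it passed in 5 of the members and genes listed by role, of which C1ql1 and C1ql3 are C1q-related only. These are the log2 interactions of C1qa (0.71), Vtn (2.50), Sez6 (0.52), C1ql1 (0.88) and C1ql3 (-0.53). In C1qa the difference was 0.42 between 5xFAD;Ulk1OV and Ulk1OV and -0.29 between 5xFAD and WT. In Vtn those differences were 1.67 and -0.84. The interaction called 12.8% of all tested genes, so calls of this kind were common in these libraries. Under the correction for GC content and transcript length, the interactions of C1qa, Sez6 and C1ql1 were 0.08, 0.03 and 0.04 (edgeR adjusted p = 0.822, 0.94 and 0.936) and no longer passed, while those of Vtn (2.16, edgeR adjusted p = 0.0166) and C1ql3 (-0.74, edgeR adjusted p = 0.0139) did. With the library labelled 5xFAD;Ulk1OV replicate 3 left out, C1ql3 did not pass (-0.42, edgeR adjusted p = 0.063).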

How the results depend on the processing

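The count of members called changed as follows. DESeq2 called 1 in 5xFAD;Ulk1OV against 5xFAD, 1 in Ulk1OV against WT and 2 in 5xFAD;Ulk1OV against Ulk1OV, where it called 3.67%, 10.6% and 11.4% of all genes. Without the filter on low counts these were 1, 2 and 3, with 2 in the interaction and 1 in each averaged comparison, against 2.85%, 6.57%, 6.63%, 8.97%, 0.638% and 1.38% of all genes. The replicate block gave 1 in 5xFAD;Ulk1OV against Ulk1OV (C1qa, 0.41 ± 0.09, edgeR adjusted p = 0.0222) against 7% of all genes, and the GC and length correction, with or without the block, gave 0 in the interaction, against 4.74% with it and 5.24% without. Leaving out 1 library gave 0 to 1 in 5xFAD;Ulk1OV against 5xFAD, 0 to 1 in Ulk1OV against WT, 0 to 3 in 5xFAD;Ulk1OV against Ulk1OV and 0 to 2 in the interaction, against 0% to 1.48%, 0% to 7.34%, 0% to 9.23% and 5.53% to 14.7% of all genes. The cause was not tested. Same-numbered libraries had correlations of -0.183 to 0.216 over 18 pairs, 4 of them over 0.1, once group means were taken away. Differently numbered libraries were not compared, so whether the numbers pair the samples was not tested. Beside the results above, C1qa passed in 5xFAD;Ulk1OV against 5xFAD without 5xFAD replicate 1 (0.66, edgeR adjusted p = 0.0356), and in 5xFAD;Ulk1OV against Ulk1OV without 5xFAD replicate 1 (0.0402) or Ulk1OV replicate 2 (0.0483).

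Signs turned only for values that had not passed. Under the GC and length correction, C3 was 0.074 in 5xFAD against WT, and C1qc was -0.18 in 5xFAD;Ulk1OV against 5xFAD. C1qa was 0.12 and C1qc 0.094 in Ulk1OV against WT, while C1qc was -0.0053 and C3ar1 0.072 in 5xFAD;Ulk1OV against Ulk1OV. In the interaction C1qb was -0.32, C1qc -0.28 and C3 -0.029, and averaged for Ulk1OV C1qc was -0.045. With the block added, C3 was 0.0012 in 5xFAD against WT, C1qc was -0.18 in 5xFAD;Ulk1OV against 5xFAD, and C1qa was 0.13 and C1qc 0.086 in Ulk1OV against WT. C3 was then -0.018 and C3ar1 0.036 in 5xFAD;Ulk1OV against Ulk1OV, and C1qb -0.31, C1qc -0.27 and C3 -0.020 in the interaction. Averaged, C1qc was -0.047 for Ulk1OV and C3 -0.0086 for 5xFAD. With the block alone they were -0.0042 for C1qc and -0.0085 for C3.

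Leaving out 1 library turned signs in these ranges. In 5xFAD against WT they were C1qc -0.023 to 0.14, C3 -0.27 to 0.36 and C5ar1 -0.018 to 0.31. In 5xFAD;Ulk1OV against 5xFAD they were C1qb -0.20 to 0.037, C3 -0.11 to 0.52, C3ar1 -0.14 to 0.28 and C5ar1 -0.30 to 0.13. In Ulk1OV against WT they were C1qc -0.41 to 0.10 and C3 -0.063 to 0.28. In 5xFAD;Ulk1OV against Ulk1OV they were C3 -0.031 to 0.35, C3ar1 -0.25 to 0.17, C5ar1 -0.61 to 0.01 and Cd59a -0.62 to 0.29. In the interaction they were C1qb -0.012 to 0.43, C3 -0.21 to 0.41 and Cd59a -0.065 to 0.84. Averaged, they were C3 -0.066 to 0.26 and C5ar1 -0.26 to 0.057 for 5xFAD, and C1qc -0.14 to 0.10, C3 -0.0061 to 0.31, C5ar1 -0.016 to 0.28 and Serping1 -0.36 to 0.011 for Ulk1OV.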
